A study of Mus musculus with 6 samples.

Results

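The genes described here are 10 apolipoprotein and lipid transfer genes of the mouse: Apoe, Clu, Abca1, Abcg1, Lrp1, Scarb1, Lipg, Lpl, Fabp5 and Fabp7. They were chosen by symbol, as the rows of the deposited gene tables whose Ensembl identifier maps to each name, and all 10 were found among 29267 genes. RNA sequencing was carried out on cultured mouse neural stem cells labelled as strain OG2, at passage 8 in every library. Libraries named D2 here carry the label diff D2, for differentiated cells, and had received naloxone (an opioid receptor antagonist), DAMGO (a synthetic peptide that activates the mu opioid receptor) or neither. NSC libraries came from undifferentiated neural stem cells under the same 3 conditions. Each of the 6 groups held 1 library, the labels state no dose or duration, and nothing says whether libraries came from separate cultures, so a p-value covers no more than the spread among the 6 libraries, which may be technical.

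Lipids travel between cells on particles built around apolipoproteins. In the brain, where plasma lipoproteins do not enter freely, astrocytes are the main source of apolipoprotein E, which is loaded with cholesterol and phospholipid by ABC transporters and taken up through receptors of the LDL receptor family. Lipases anchored to cell surfaces or matrix release fatty acids from such particles, and small fatty acid binding proteins carry these within the cell. Fabp7 is a widely used marker of radial glia and neural progenitors.

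RefSeq promoter windows (build GRCm38.p6, the same assembly as mm10) were held for 4 of the 10 genes: Abca1, Apoe, Fabp7 and Lrp1. Those of Apoe, Abca1 and Fabp7 are shown because these genes have a large and well-counted rise, the export step, and the highest level. The windows lie at chr7:19699189-19699438 (minus strand), chr4:53159896-53160145 (minus strand) and chr10:57784673-57784880 (plus strand), each read 5′ to 3′ towards the start of its gene. The first 2 hold the 250 bases before the annotated gene start, and the Fabp7 window holds 208 bases and ends where the annotated gene begins. Capitals mark a nuclear receptor type direct repeat and an E-box in Abca1, and CCAAT letters on the reverse strand in Fabp7.
Apoe: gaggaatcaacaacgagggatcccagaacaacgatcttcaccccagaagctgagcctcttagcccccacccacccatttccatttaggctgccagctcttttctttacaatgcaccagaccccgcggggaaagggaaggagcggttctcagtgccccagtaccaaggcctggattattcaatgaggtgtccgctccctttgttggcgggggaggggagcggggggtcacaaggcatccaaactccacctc
Abca1: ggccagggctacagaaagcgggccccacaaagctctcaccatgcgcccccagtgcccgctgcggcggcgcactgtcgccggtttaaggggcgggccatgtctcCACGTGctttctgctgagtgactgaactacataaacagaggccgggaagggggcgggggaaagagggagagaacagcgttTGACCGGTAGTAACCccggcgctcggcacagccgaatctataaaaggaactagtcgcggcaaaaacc
Fabp7: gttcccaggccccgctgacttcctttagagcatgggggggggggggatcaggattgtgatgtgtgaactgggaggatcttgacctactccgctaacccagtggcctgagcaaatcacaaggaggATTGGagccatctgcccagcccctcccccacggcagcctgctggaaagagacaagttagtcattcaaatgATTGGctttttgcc
The direct repeat was searched on both strands as GGTNA, then 5 bases of any kind, then GGTCA, and its match in Abca1 is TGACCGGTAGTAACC, 67 to 53 bases before the start on the reverse strand. Repeats of this spacing are known as a binding pattern of LXR, the oxysterol receptor. Of 32851 RefSeq windows of 250 bases, 0.177% held such a match. The E-box, CACGTG, was present in 6.02% of windows and CCAAT in 33.8%. Abca1 also held GGGCGG (32.7% of windows) at 2 places and TATAAA (12.4%) 29 to 24 bases before the start. None of the 5 patterns was found in the Apoe window. These letters are a description of the windows, and binding was not measured.

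Library totals ran from 8417074 to 13561237 expected counts, and 0 counts in a library allows a level of up to 0.221 to 0.356 CPM (3 counts, for counting error only). Of the 10 astrocyte markers 9 were tested and all 9 rose in D2, with a summed level of 5481 to 5736 CPM in D2 and 1129 to 1182 CPM in NSC libraries. Summed oligodendrocyte lineage markers were at 6141 to 6905 CPM in D2 and 3127 to 3264 CPM in NSC, with 8 of 8 tested genes rising. Among the astrocyte and oligodendrocyte lineage markers, some reached the mean of 10 counts needed for testing only through D2. These were Gfap (262 counts over D2 and 6 over NSC libraries), Sox10 (782 and 20) and Mbp (86 and 26). Proliferation and stem cell markers (Nes, Sox2, Mki67, Top2a, Ccnb1, Egfr) summed to 1688 to 1767 CPM in D2 and 5692 to 5736 CPM in NSC, with 4 of 6 falling in D2, as in all 12 alternative settings, and 2 rising, against 1 in 8 of those 12 settings. Microglia also make apolipoprotein E, and their markers Cx3cr1, Tyrobp, C1qa and C1qb had 0 counts in all 6 libraries. Adipocyte markers summed to 0.236 to 0.589 CPM in D2 and 0.0740 to 0.110 CPM in NSC, with Cidec, Lep and Cfd at 0 counts throughout. Endothelial markers summed to 4.53 to 5.67 CPM in D2 and 5.18 to 6.43 CPM in NSC, with 0 of 2 tested genes passing (2 genes fell without the count filter) and Cldn5 at 0 counts. Pericyte and fibroblast markers summed to 104 to 121 CPM in D2 and 123 to 147 CPM in NSC, with 2 of 6 tested genes rising (5 without the NSC or the D2 naloxone library) and 1 falling (3 without either control library), and choroid plexus markers to 0.589 to 0.827 CPM in D2 and 0.283 to 0.662 CPM in NSC. Most of the pericyte and fibroblast sum was Cspg4, which fell (mean 90.0 CPM in D2 and 131 CPM in NSC). Pdgfrb (8.10 and 0.081 CPM) and Acta2 (6.50 and 0.583 CPM) rose. Both reached the mean of 10 counts needed for testing only through their D2 counts. Neuronal markers summed to 1237 to 1377 CPM in D2 and 1132 to 1188 CPM in NSC, with 3 of 6 tested genes rising and 2 falling (1 with DESeq2, and 0 with limma or without either DAMGO library). Most of that sum was Map2, which did not pass (mean 1115.6 CPM in D2 and 1100.5 CPM in NSC). Tubb3 (104 and 11.9 CPM) and Dcx (69.4 and 9.40 CPM) were among the genes that rose.

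Between D2 and NSC, 7 of the 10 genes rose (Apoe, Clu, Abca1, Lrp1, Lipg, Fabp5 and Fabp7), 2 fell (Scarb1 and Lpl), and Abcg1 was too low to be tested. Genes averaging 10 counts or more per library were tested, and a call is an edgeR quasi-likelihood p, adjusted by Benjamini-Hochberg over all genes tested, under 0.05. Most of the transcriptome differed between the states: of 13216 genes tested, 79.8% passed, of which 40.0% rose and 39.8% fell (shares of all tested), so a call alone sets these genes apart from few others. The sizes did differ, with a median absolute log2 fold change of 0.68 over all genes tested. In bulk RNA, fewer cells of a type and less RNA per cell cannot be told apart.

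**Figure D1:**
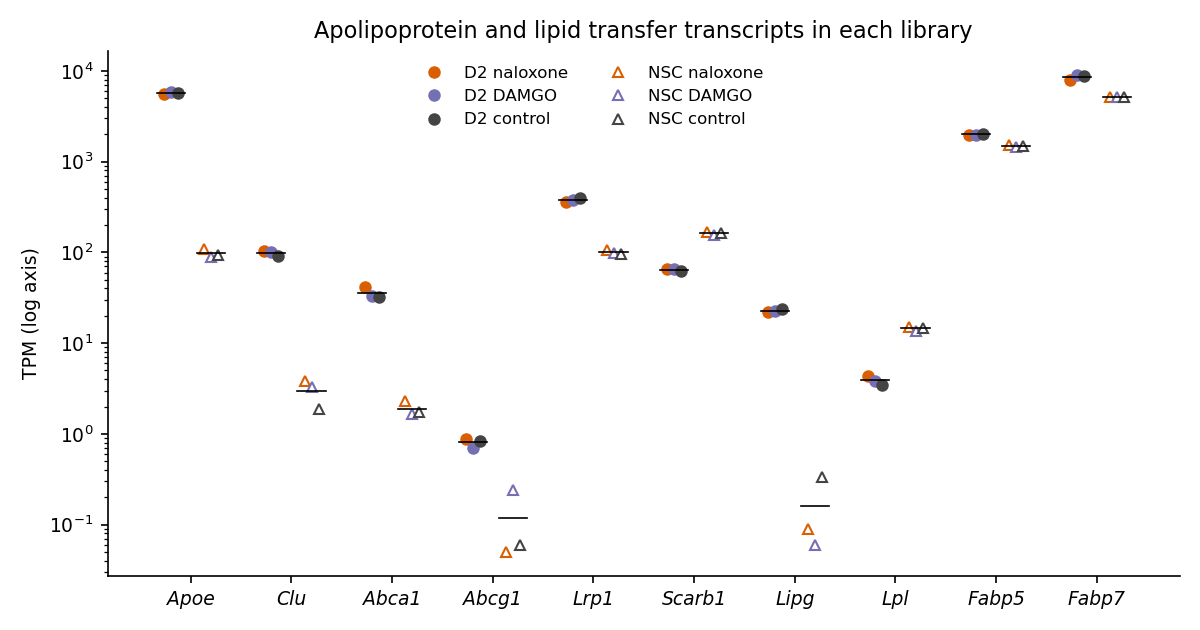
Deposited TPM of the 10 genes (log axis) in the 6 libraries, D2 as filled circles left of NSC as open triangles, coloured by ligand, with a bar at the mean of 3 libraries. Apoe lies between 5569 and 5817 TPM in D2 and between 89.0 and 110 TPM in NSC, while Scarb1 and Lpl are lower in D2.

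Both apolipoproteins rose strongly. Apoe (ENSMUSG00000002985, chromosome 7, 19696109 to 19699188, minus strand, mm10), the main lipid carrier of the brain, had 5569, 5817 and 5679 TPM in D2 with naloxone, DAMGO and no ligand, against 109.7, 89.0 and 93.5 TPM in the NSC libraries in the same order. The 3 D2 libraries are close to each other (coefficient of variation 2.18%) and far above every NSC library. Its normalised level was 2480 ± 89.4 CPM in D2 and 45.6 ± 4.60 CPM in NSC (SD, n = 3 each), an edgeR log2 fold change of 5.76 (SE 0.07, adjusted p = 1.06e-13), and 0.431% of tested genes changed by as much or more. By TPM Apoe was the 5th most abundant gene in each D2 library, and ranked between 1973 and 2520 in NSC libraries. The astrocyte, oligodendrocyte lineage and proliferation markers given above moved between D2 and NSC together with Apoe and with every other difference between these states described here, and their part in these results was not tested.

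Clu (ENSMUSG00000022037, chromosome 14, 65968483 to 65981547, plus strand) encodes clusterin, also called apolipoprotein J, a secreted chaperone. It had 104, 102 and 90.8 TPM in D2 with naloxone, DAMGO and no ligand, against 3.85, 3.25 and 1.88 TPM in the NSC libraries. The ranges of the states do not overlap, as was so in CPM for 82.2% of all genes tested. The NSC values rest on 28, 18 and 16 counts. Clu rose by 5.24 on the log2 scale (SE 0.11, edgeR adjusted p = 2.27e-12). The TPM ratio of Apoe over Clu was 53.7, 57.0 and 62.5 in the D2 libraries, against 28.5, 27.4 and 49.7 in the NSC libraries.

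The ABC transporters that load lipid onto such particles differed in level. Abca1 (ENSMUSG00000015243, chromosome 4, 53030787 to 53159895, minus strand), which exports cholesterol and phospholipid to lipid-poor apolipoproteins, had 41.6, 33.3 and 32.6 TPM in D2 with naloxone, DAMGO and no ligand, against 2.29, 1.64 and 1.74 TPM in the NSC libraries. The naloxone library was the highest of its group in both states. Abca1 rose with an edgeR log2 fold change of 4.22 (SE 0.07, adjusted p = 4.41e-13). Abcg1 (ENSMUSG00000024030, chromosome 17, 31057675 to 31117988, plus strand), which passes sterol to more mature particles, had 12, 10 and 14 counts in the D2 libraries and 1 count in each NSC library. The ratio of summed counts, 36 in D2 and 3 in NSC, was 14.5 with an exact binomial 95% counting interval of 4.58 to 73.5. In the D2 libraries Abca1 was 47.2, 48.2 and 38.8 times as abundant per length as Abcg1.

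The uptake receptors moved in opposite directions. Lrp1 (ENSMUSG00000040249, chromosome 10, 127538161 to 127621148, minus strand), a large endocytic receptor that binds apolipoprotein E, had 363, 379 and 399 TPM in D2 with naloxone, DAMGO and no ligand, against 106, 99.4 and 96.2 TPM in NSC. Scarb1 (ENSMUSG00000037936, chromosome 5, 125277087 to 125341094, minus strand), the receptor for selective uptake of cholesteryl ester from HDL, had 65.0, 65.3 and 62.7 TPM in D2, against 170.0, 154 and 162 TPM in NSC. For both receptors the ranges of the states do not overlap, as was so for 82.2% of all genes tested. Lrp1 rose with an edgeR log2 fold change of 1.94 (SE 0.05, adjusted p = 1.06e-11) and Scarb1 fell with a log2 fold change of -1.34 (SE 0.06, adjusted p = 6.26e-10). The TPM ratio of Lrp1 over Scarb1 was 5.59, 5.80 and 6.37 in the D2 libraries, against 0.626, 0.647 and 0.594 in the NSC libraries, so their order was exchanged.

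The lipases, which belong to one family, exchanged places too. Lipg (ENSMUSG00000053846, chromosome 18, 74939322 to 74961263, minus strand), the endothelial lipase with preference for phospholipid, had 22.1, 22.5 and 23.9 TPM in D2 with naloxone, DAMGO and no ligand, against 0.090, 0.060 and 0.33 TPM in NSC. These NSC values stand on 2, 1 and 6 counts, and Lipg passed the filter only through its D2 counts. Lipg rose by 7.10 on the log2 scale (SE 0.23, edgeR adjusted p = 4.81e-11). This value was 8.03 without the NSC control library, and also 8.03 without the D2 control library. The ratio of summed counts was 144 with an exact binomial 95% counting interval of 75.8 to 317. Lpl (ENSMUSG00000015568, chromosome 8, 68880491 to 68907448, plus strand), lipoprotein lipase, which hydrolyses triglyceride, had 4.32, 3.85 and 3.44 TPM in D2, against 15.2, 13.8 and 14.8 TPM in NSC. It fell with an edgeR log2 fold change of -2.21 (SE 0.13, adjusted p = 7.90e-09). The TPM ratio of Lipg over Lpl was 5.12, 5.84 and 6.96 in the D2 libraries, and in NSC libraries Lpl was the more abundant. Lpl was the 1 gene of the 10 with fractional expected counts, so some of its reads were divided with other features.

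The fatty acid binding proteins were abundant in both states and rose little. Fabp7 (ENSMUSG00000019874, chromosome 10, 57784881 to 57788450, plus strand), the brain type, had 8044, 9125 and 8812 TPM in D2 with naloxone, DAMGO and no ligand, against 5130.0, 5220.1 and 5185 TPM in NSC. It was the gene with the second highest TPM in each D2 library and the fourth highest in each NSC library. Fabp5 (ENSMUSG00000027533, chromosome 3, 10012548 to 10016607, plus strand), the epidermal type, which is widely expressed, had 1987, 1991 and 2039 TPM in D2, against 1534, 1453 and 1477 TPM in NSC. Every D2 library exceeded every NSC library for both genes, and CPM ranges of the states did not overlap for 82.2% of all genes tested. The edgeR log2 fold changes were 0.73 (SE 0.04, adjusted p = 1.20e-08) for Fabp7 and 0.43 (SE 0.04, adjusted p = 2.00e-06) for Fabp5. Of all genes tested, 47.0% and 65.7% changed by as much or more. Fabp7 over Fabp5 was 4.05, 4.58 and 4.32 by TPM in the D2 libraries, against 3.34, 3.59 and 3.51 in the NSC libraries.

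**Figure D2:**
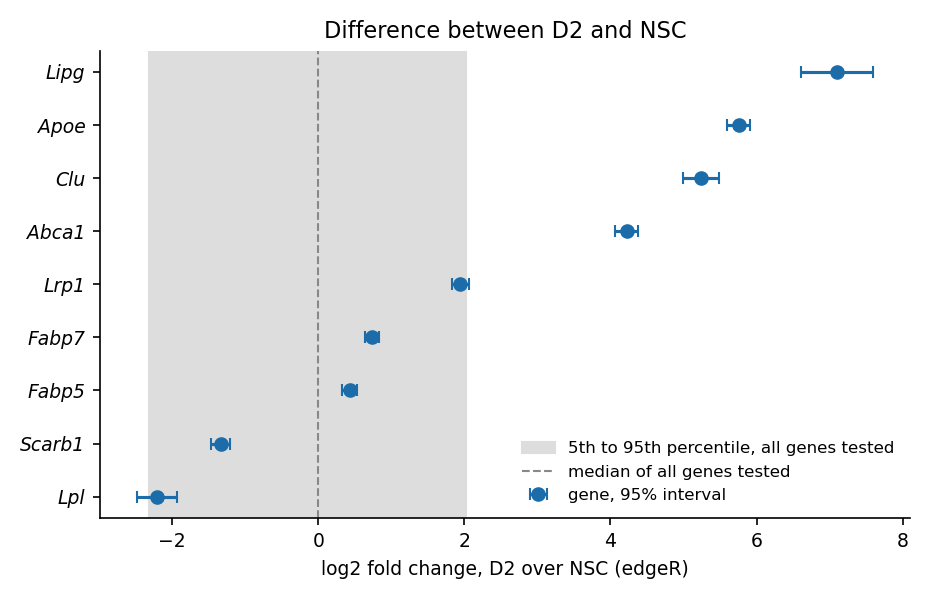
Log2 fold change of D2 over NSC for the 9 tested genes, with 95% intervals from edgeR, above a grey band from the 5th to the 95th percentile of all 13216 genes tested. Lipg, Apoe, Clu and Abca1 lie beyond the band, and the point values of Lrp1, Fabp7, Fabp5, Scarb1 and Lpl lie within it.

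The order of the 10 genes by TPM changed with state. In D2 it ran Fabp7, Apoe, Fabp5, Lrp1, Clu, Scarb1, Abca1, Lipg, Lpl and Abcg1, and no neighbours in that order overlapped in their 3 libraries. In NSC it ran Fabp7, Fabp5, Scarb1, Lrp1, Apoe, Lpl, Clu, Abca1, Lipg and Abcg1. There the ranges of Lrp1 and Apoe overlapped, as did those of Clu and Abca1 and those of Lipg and Abcg1. Together the 10 genes held 1.62%, 1.75% and 1.71% of all TPM in D2 with naloxone, DAMGO and no ligand, against 0.707%, 0.703% and 0.703% in the NSC libraries. Apoe made up 34.4%, 33.2% and 33.1% of that sum in D2 and 1.55%, 1.27% and 1.33% in NSC. Fabp5 and Fabp7 made up 61.9%, 63.4% and 63.3% of it in D2 and 94.2%, 94.9% and 94.7% in NSC.

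**Figure D3:**
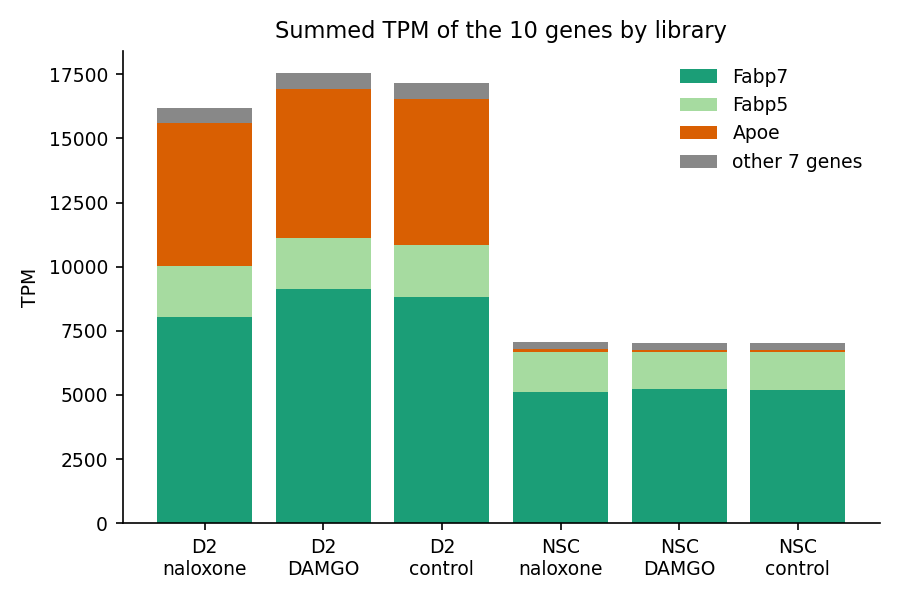
Summed TPM of the 10 genes in each library, D2 left of NSC, split into Fabp7, Fabp5, Apoe and the other 7 genes. The D2 bars reach 16201 to 17540 TPM and the NSC bars 7032 to 7072 TPM, and the Apoe segment makes up 33.1% to 34.4% of D2 bars and 1.27% to 1.55% of NSC bars.

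The deposited gene length is an average over transcripts, weighted by the estimated share of each, and it moved with state for a few genes. For Lpl, with 3 annotated transcripts, it was 2641, 2717 and 2975 bases in D2 with naloxone, DAMGO and no ligand, against 3343, 3339 and 3382 bases in NSC. For Apoe, with 10 transcripts, it was 1019, 1020.3 and 1023 bases in D2, against 1073, 1089 and 1099 bases in NSC. Both groups are separate for Lpl and Apoe, and the shorter values were those of D2. Small separations were seen for Fabp5, longer in D2 (1003.7 to 1009.5 bases, against 1002.55 to 1003.2 in NSC). Fabp7 was shorter in D2 (804.5 to 804.9 bases, against 805.3 to 805.4 in NSC). The share of all genes with separate lengths was not computed. For Clu it ranged from 1603 to 1651 bases in D2 and from 1237 to 1811 bases in NSC, where counts were few. A shift in length changes TPM but not counts: Lpl in D2 stood at 0.266 of its NSC level by TPM and 0.216 by edgeR on counts. No transcript was tested by itself.

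Genes of the wider lipid lists rose more often than they fell. Outside the 10 genes, 11 lists held 222 genes, of which 146 were tested, 86 rose, 42 fell and 18 did not pass (58.9% and 28.8% of those tested, median log2 fold change 0.39). The same figures over all genes tested were 40.0%, 39.8% and a median of 0.0015, and no set test was made. The lists were chosen with earlier results of these data known, so their shares may not hold for lipid genes at large.

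Other apolipoproteins were nearly silent. Of 24 entries, 8 had 0 counts in all 6 libraries, among them Apoa4, Apoa5 and Apoc3, and 2 were tested. These were Apoo (-0.56, SE 0.13; edgeR adjusted p = 0.00156) and Apool (-0.38, SE 0.11; edgeR adjusted p = 0.00785), both of which fell, with overlapping libraries for Apoo (11.9 to 22.1 CPM in D2 and 21.3 to 25.1 CPM in NSC). Apool did not pass with DESeq2 (adjusted p = 0.105), without the NSC control library (edgeR adjusted p = 0.0681) or without the D2 control library (edgeR adjusted p = 0.0611). Both encode mitochondrial inner membrane proteins. Apoc1, which neighbours Apoe in the mammalian apolipoprotein cluster, had 33 counts over the D2 libraries and 0 over the NSC libraries. Among relatives of the fatty acid binding proteins, 3 of 17 were tested: Dbi, an acyl-CoA binding protein, rose (0.90, SE 0.05), and Acbd5 (-0.39, SE 0.09) and Acbd3 (-0.27, SE 0.07) fell, with edgeR adjusted p of at most 0.00314. Fabp4, the adipocyte type, had 29 counts over the D2 libraries and 2 over the NSC libraries, and Fabp1, Fabp2, Fabp6, Fabp9, Fabp12 and Rbp2 had 0.

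Transporters and receptors split. Of 13 further ABC genes tested, 8 rose and 4 fell (median 0.63). The peroxisomal transporter Abcd2 rose (1.51, SE 0.11), as did the phosphatidylcholine transporter Abcb4 (1.44, SE 0.30), while Abca8b (-2.94, SE 0.16) and the multidrug exporter Abcg2 (-1.45, SE 0.10) fell (edgeR adjusted p of at most 0.000827). Of 20 further LDL receptor family genes and adaptors, 13 rose and 5 fell (median 0.54). The sorting receptor Sorl1 averaged 86.3 ± 1.22 CPM in D2 and 24.8 ± 0.579 CPM in NSC (edgeR log2 fold change 1.80, SE 0.07), and the endocytic adaptor Dab2 rose (1.51, SE 0.12). Vldlr, which binds apolipoprotein E and reelin, fell to 46.9 ± 5.52 CPM in D2, against 112 ± 2.91 CPM in NSC (edgeR log2 fold change -1.26, SE 0.07, adjusted p = 3.51e-09). Of 6 further scavenger receptors tested, 3 rose and 1 fell (0 with DESeq2; median 0.55), with the astrocyte engulfment receptor Megf10 at 106 ± 11.1 CPM in D2 and 16.9 ± 1.64 CPM in NSC, and the lysosomal protein Scarb2 at 257 ± 17.7 CPM in D2 and 124 ± 4.08 CPM in NSC.

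Lipase genes and their regulators rose in 10 of 13 cases and fell in 1 (median 0.75). Angptl4, a secreted inhibitor of lipoprotein lipase, had 149 counts over the D2 libraries and 1 over the NSC libraries, a ratio of 179.8 with an exact binomial 95% counting interval of 31.8 to 7149. Angptl4 passed the count filter only through its D2 counts. Mgll, monoacylglycerol lipase, rose (3.55, SE 0.10; edgeR adjusted p = 2.29e-11) and the phospholipase Liph fell (-2.76, SE 0.23; edgeR adjusted p = 3.50e-07). Gpihbp1, the anchor of lipoprotein lipase on capillaries, had 0 counts. Of 9 genes of lipoprotein remodelling, 7 rose and 2 fell (median 1.00). The phospholipid transfer protein Pltp averaged 9.44 ± 1.96 CPM in D2 and 0.960 ± 0.474 CPM in NSC, and the lysosomal phospholipase Pla2g15 rose (1.15, SE 0.12). Lypla1 (-0.58, SE 0.09) and Nceh1, a cholesteryl ester hydrolase (-0.46, SE 0.10), fell. The edgeR adjusted p of these 4 genes reached at most 0.00103.

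Of 17 further genes of the LXR and RXR list, 12 rose and 3 fell (median 0.72). The receptors themselves were Nr1h2 (0.44, SE 0.08; edgeR adjusted p = 0.000234) and the scarce Nr1h3, with 54 counts over D2 and 15 over NSC libraries (2.02, SE 0.41; edgeR adjusted p = 0.000675). Nr1h3 passed the count filter only through its D2 counts. The target Lpcat3, a phospholipid remodelling enzyme, rose (1.13, SE 0.07), as did Lxn, a carboxypeptidase inhibitor (2.36, SE 0.07). Pltp, given above, is in this list too. The lipogenic enzymes split: Fasn (-0.33, SE 0.04) and Scd1 (-0.31, SE 0.05) fell, and Scd2 (0.95, SE 0.03) rose. Scd2 averaged 5498 CPM in D2 and 2847 CPM in NSC, against 310 and 384 CPM for Scd1. The edgeR adjusted p was at most 0.000116 for Lpcat3, Lxn, Fasn, Scd1 and Scd2. Of 17 genes of the PPAR list, 13 rose and 1 fell (median 0.68), with the receptor Ppara at 2.27 (SE 0.26) and the coactivator Ppargc1a at -0.42 (SE 0.10; edgeR adjusted p = 0.00184, and 0.0805 with limma), besides Angptl4. Intracellular lipid transfer genes rose in 16 and fell in 13 of 33 cases (median 0.07). Stard10 (2.33, SE 0.20) and the sterol transporter Gramd1b (1.34, SE 0.10) rose, and Vps13a, a bridge-like lipid transfer protein (-2.55, SE 0.11), and Tmem97, which binds the cholesterol transporter NPC1 (-2.13, SE 0.07), fell. Fatty acid uptake and activation genes rose in 7 and fell in 8 of 17 cases (median -0.06). The lysolipid carrier Mfsd2a (2.65, SE 0.10) and caveolin Cav1 (2.54, SE 0.20) rose, and the acyl-CoA synthetases Acsl4 (-3.47, SE 0.08) and Acsl5 (-2.53, SE 0.10) fell. For these 8 transfer and uptake genes the highest edgeR adjusted p was 3.25e-07.

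**Figure D4:**
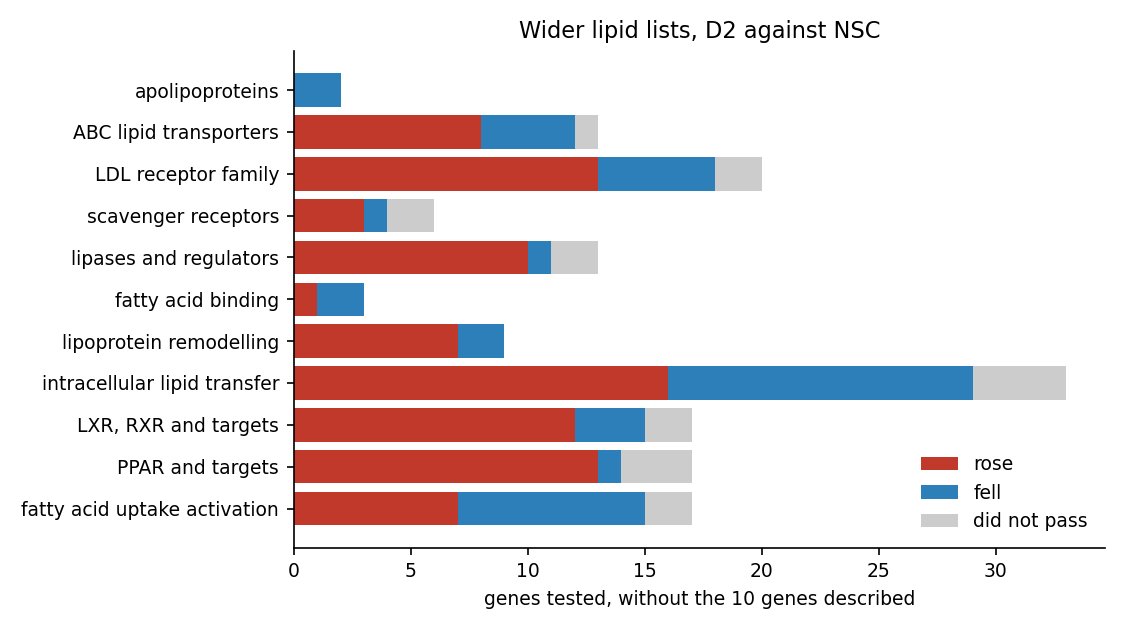
Number of genes tested in each of the 11 wider lists, without the 10 genes described, split by the edgeR result for D2 over NSC into genes that rose, fell or did not pass. Rises outnumber falls in the LDL receptor family (13 and 5), the lipase list (10 and 1) and the PPAR list (13 and 1), among others. They do not in fatty acid uptake and activation (7 and 8), apolipoproteins (0 and 2) or fatty acid binding (1 and 2).

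None of the 9 tested genes, and 0 of the 146 tested genes of the wider lists, passed for either ligand in the edgeR fit over both states. For naloxone against control, 0 of 9 passed the edgeR test, where 0.0151% of all genes did, and 1 had an unadjusted p under 0.05, where 2.22% of all genes did. For DAMGO against control, 0 of 9 passed, where 0.0151% of all genes did, and 0 had an unadjusted p under 0.05, where 2.40% of all genes did. DESeq2 and limma also called 0 for each ligand, and at an unadjusted p under 0.05 each gave 1 gene for naloxone (Abca1 with DESeq2, Clu with limma) and 0 for DAMGO. Edges of the 95% intervals lay a median of 0.17 from the log2 fold change for either ligand, so a change of that size in 1 of these genes would not have been excluded.

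Abca1 was the gene with the low unadjusted p for naloxone. It had 192 CPM in D2 with naloxone and 153 CPM in the D2 control, and 10.8 CPM in NSC with naloxone and 8.22 CPM in the NSC control. Its edgeR log2 fold change over both states was 0.34 (SE 0.08, 95% interval 0.17 to 0.51, unadjusted p = 0.00107, adjusted p = 1.00), higher in 2 of 2 states. Without the D2 control library its unadjusted p no longer passed 0.05. With DAMGO it was at 158 CPM in D2 and 7.72 CPM in NSC (log2 fold change 0.02, SE 0.08; edgeR adjusted p = 1.00). The naloxone and DAMGO comparisons share their control libraries. The other 8 genes had naloxone log2 fold changes between -0.19 (Lipg) and 0.14 (Clu), and DAMGO values between -0.13 (Lipg) and 0.18 (Clu).

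Within a state each ligand comparison holds 1 library against 1, so ratios carry counting error only and no test. In D2 with naloxone, the exact binomial 95% interval of the count ratio excluded 1 for 5 of the 10 genes, where 21.0% of all genes tested did so: Abca1 was higher (ratio 1.25, interval 1.17 to 1.34), and Fabp7 (0.895, 0.880 to 0.911), Lrp1 (0.915, 0.893 to 0.937), Apoe (0.957, 0.939 to 0.975) and Fabp5 (0.958, 0.928 to 0.988) were lower. In NSC with naloxone it excluded 1 for 4 genes, where 8.91% of all genes did so, and all 4 were higher: Abca1 (1.31, 1.001 to 1.73), Apoe (1.14, 1.01 to 1.29), Lrp1 (1.08, 1.04 to 1.13) and Fabp5 (1.04, 1.005 to 1.07). With DAMGO it excluded 1 for 4 genes in D2, where 16.7% did so, with Clu (1.12, 1.01 to 1.25), Fabp7 (1.04, 1.03 to 1.06) and Apoe (1.03, 1.01 to 1.05) higher and Lrp1 (0.922, 0.900 to 0.944) lower. In NSC with DAMGO it did so for 0 genes, where 7.78% of all genes did so. Abundant genes have narrow counting intervals, and the spread between cultures is not part of them.

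**Figure D5:**
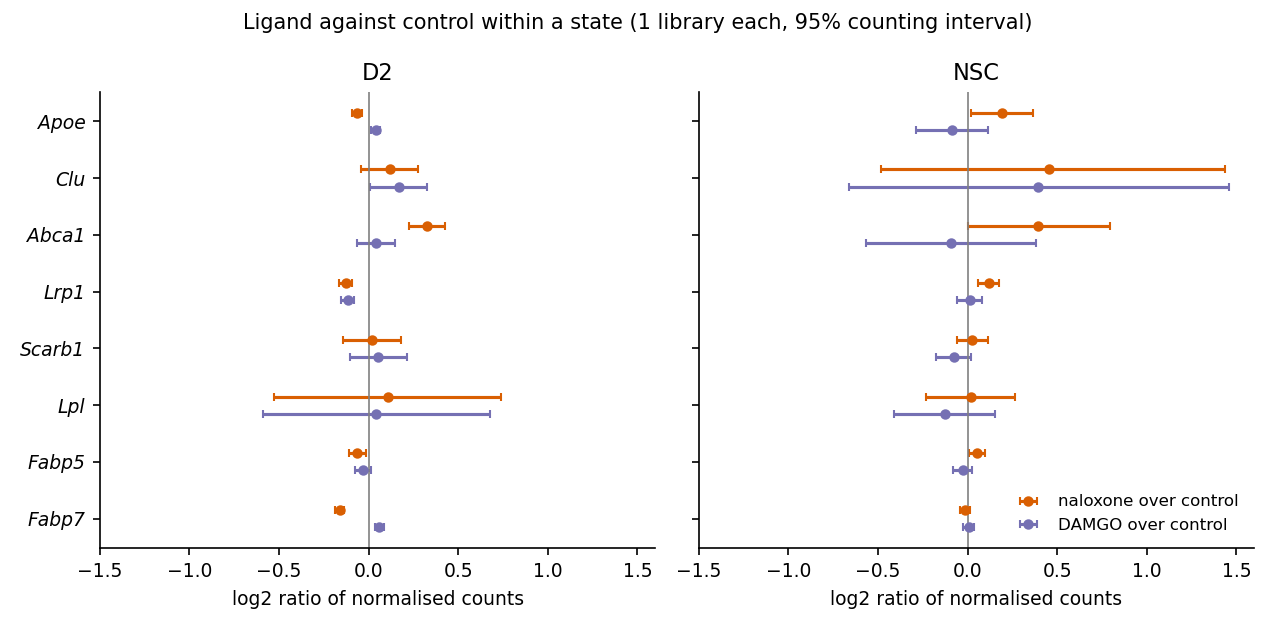
Log2 ratio of normalised counts of each ligand library over the control library of its state, for 8 genes with their 95% counting intervals. Abcg1 is left out for its low counts in both states, and Lipg for its low counts in NSC. Abca1 with naloxone lies above 0 in D2 and in NSC, and the other naloxone ratios in D2 lie between 0.895 and 1.08 on the linear scale.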

How the data were processed

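For each gene and library the authors deposited expected counts, TPM, FPKM and an average gene length. Bowtie, RSEM and build mm10 are named in the submitters' processing notes; their versions and the annotation are not given there. RNA was extracted with Trizol and prepared with a TruSeq RNA kit, per the labels' protocols. The kit does not mark strand, and none of the 10 genes shares exon bases with another GENCODE M21 gene. Deposited expected counts were rounded, TPM was used as deposited, and the authors' FPKM values were not used. Of 29267 identifiers 28756 matched GENCODE M21, which gave symbols and coordinates.

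edgeR 4.0.16 (R 4.3.3), with TMM factors, fitted state plus ligand to 13216 genes averaging 10 counts or more, which leaves 2 residual degrees of freedom. SE is the log2 fold change divided by the root of its F value. Alternatives were RLE factors, library totals, no filter, DESeq2 1.42.0, limma 3.58.1 on log2(TPM + 1), no ligand term, and leaving out each library. Count ratios within a state are of TMM-normalised counts (log2 ratios with a prior count of 2), and their intervals are exact binomial intervals from scipy 1.17.1.

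The 10 genes and all lists were chosen with earlier results of these data known. From each wider list, up to 2 genes with the highest and 2 with the lowest log2 fold change among those that passed, moving one way under each of the 3 ligand conditions and with at least 5 CPM in a state, are named; some that it selects are not reported here. Gfap, Sox10, Mbp, Nr1h2, Nr1h3, Lpcat3, Scd2, Apoc1, Fabp4, Gpihbp1 and other genes at 0 counts were named after their values were seen. Of the pericyte and fibroblast markers and of the neuronal markers, the 3 with the highest mean CPM are named. No gene is named for likeness of pattern, since 2 states give most changed genes the same one.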

Additional observations from a re-analysis of the deposited data

Results flagged for a closer look

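With naloxone against control, 3 genes had counting intervals on opposite sides of no change in D2 and NSC. The share of all genes tested that did so was not computed. Intervals excluded 1 for 21.0% of all genes tested in D2 and 8.91% in NSC. Abundant genes such as these 3 have narrow counting intervals. The log2 ratio of Apoe was -0.064 in D2 and 0.19 in NSC, that of Lrp1 was -0.13 in D2 and 0.12 in NSC, and that of Fabp5 was -0.062 in D2 and 0.053 in NSC. Each ratio sets 1 library against 1, and the difference between the states was not tested.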

How the results depend on the processing

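The 9 D2 against NSC log2 fold changes of the genes tested kept their direction and stayed past the threshold under all 12 alternatives. On the log2(TPM + 1) scale, which shrinks differences of scarce genes, Lipg was at 4.37, Clu at 4.67, Abca1 at 3.67 and Lpl at -1.68. Without a filter Abcg1 was tested too and 10 genes were called. No ligand alternative called any of the 9 genes. Abca1 with naloxone had log2 fold changes of 0.30 to 0.45 and edgeR, DESeq2 or limma adjusted p of 0.121 to 1.00 over 11 alternatives, with an unadjusted p under 0.05 in 9. Counts over all genes moved more. For naloxone, 2 genes passed, against 0 with RLE factors, 45 without a filter, 1 with DESeq2 and 0 with limma, and 1 to 74 when a library was left out. For DAMGO, 2 passed, against 83 without a filter, 0 with DESeq2 and 0 with limma, and 4 to 123 when a library was left out. The cause was not tested. The number of neighbours in the level order with overlapping ranges, 3, became 1 to 3 when a library was left out. Among the named list genes, Apool lost its call with DESeq2 and without the NSC control or the D2 control library, and Ppargc1a with limma. With them 1 apolipoprotein gene and 0 PPAR genes fell in those settings, 0 scavenger receptors fell with DESeq2, and without a filter 1 apolipoprotein and 3 fatty acid binding genes rose. The model pairs the states by ligand, and without the ligand term no call among the 9 genes changed; the labels give no replicate numbers for a further block. Depth limits Abcg1 and the NSC levels of Lipg and Clu.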
